A study of Mus musculus with 9 samples.

Results

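The comparison set quadriceps femoris of mice in which a transgenic self MHC class I protein was induced late against muscle of younger mice in which it was not induced. Members were the samples titled late and control, 6 of the 9 arrays of the series, and all 9697 genes with a measurable signal were described. All mice were female and carry the strain label C57Bl/6 HT transgenic. Late mice (n = 3) received doxycycline, which represses the transgene, until 35 days of age and were killed at 50 days per their labels, or at 49 to 50 days per the protocol, after about 15 days without the drug. Control mice (n = 3) stayed on doxycycline and were killed at 35 days. The protocol calls the controls single transgenic littermates although the strain label does not differ, so their genotype is not settled. The remaining group, early mice (n = 3), came off doxycycline at 21 days and were killed at 35 days. Below it serves to place late values, is tested directly against late mice and enters the shared estimate of spread. Late mice differed from controls in induction, in age and possibly in genotype, and these cannot be told apart. The labels do not name the promoter that drives the transgene. The labels do not say whether mice shared a litter or cage, and p values measure only the spread between these samples. Titles also carry a longer number, for late 3 the next after that of early 3, and do not say what it stands for.

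MHC class I molecules carry peptides from inside the cell to its surface, and their heavy chains fold in the endoplasmic reticulum (ER) with the light chain beta-2 microglobulin. Resting muscle fibres hold little class I, whereas fibres in inflammatory myopathies display much of it. Mouse quadriceps still grows in the weeks after weaning: fibre nuclei are added by fusion of satellite cell progeny, fibroblasts lay down collagen and elastic fibres, and a network of imprinted growth genes is shut down as growth slows.

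Values are log2 expression per array, in the order of replicates 1, 2 and 3, and differences are log2 late minus control ± SE from 1 limma fit to all 9 arrays. A gene is said to have risen or fallen only at an adjusted p under 0.05. The 6 arrays held muscle RNA. Acta1, skeletal actin, lay at 16.10, 15.85 and 15.85 in controls and at 15.93, 15.81 and 15.85 in late mice, and the mean of 15 skeletal muscle markers was 14.69 to 14.75 in controls and 14.74 to 14.84 in late mice. Late 1 stood apart from the other arrays. In it 59 probe sets exceeded every other array by more than 3 on the log2 scale, against 0 to 2 in each of the other 8 arrays. Of 14 neutrophil and mast cell markers on the array, 8 were among them. S100a8, a calcium-binding protein of neutrophils, was 13.94 in late 1 and 2.55 to 2.94 elsewhere, Mpo, myeloperoxidase of neutrophil precursors, was 8.96 against 2.05 to 2.14, and Camp, a neutrophil antimicrobial peptide, was 11.19 against 2.34 to 2.60. Ibsp, a bone matrix protein named after its values were seen, was 10.10 in late 1 and 2.74 to 2.91 elsewhere. These genes were high in 1 array only and did not pass the filter on low values. Many results below that late 1 decides or moves by over 1.5 times are given without it too, but not every list median. The correlation between arrays was 0.959 to 0.984 within the late group, 0.985 to 0.992 within controls and 0.939 to 0.982 between them. Within the early group it was 0.934 to 0.977. Early arrays split for some lists: macrophage markers averaged 9.63, 9.32 and 8.08, and embryonic and cardiac sarcomere genes 10.48, 10.76 and 8.11. They agreed for others, such as ER chaperones and folding enzymes (10.35, 10.44 and 10.52). The early arrays enter the shared spread and each late against early test.

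Of 9697 genes, 20 (0.206%) were called, 9 higher (0.0928%) and 11 lower (0.113%) in late mice. The late and control arrays did not overlap for 3003 genes (31%). The median difference over all genes was 0.01. Without late 1 the count was 9, of which 6 were among the 20. It was 5, 5 and 6 without control 1, 2 or 3, 6 without late 2, and 16, 6 and 59 without early 1, 2 or 3, which enter only through the shared spread. The genes 2610507I01Rik, Mymk, Mid1, H2-K1 and Cthrc1 were called in each of these 9 fits, and the other 15 lost the call in at least 4 of them. In the plot of size against p value, the called genes lie at both edges.

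**Figure D1:**
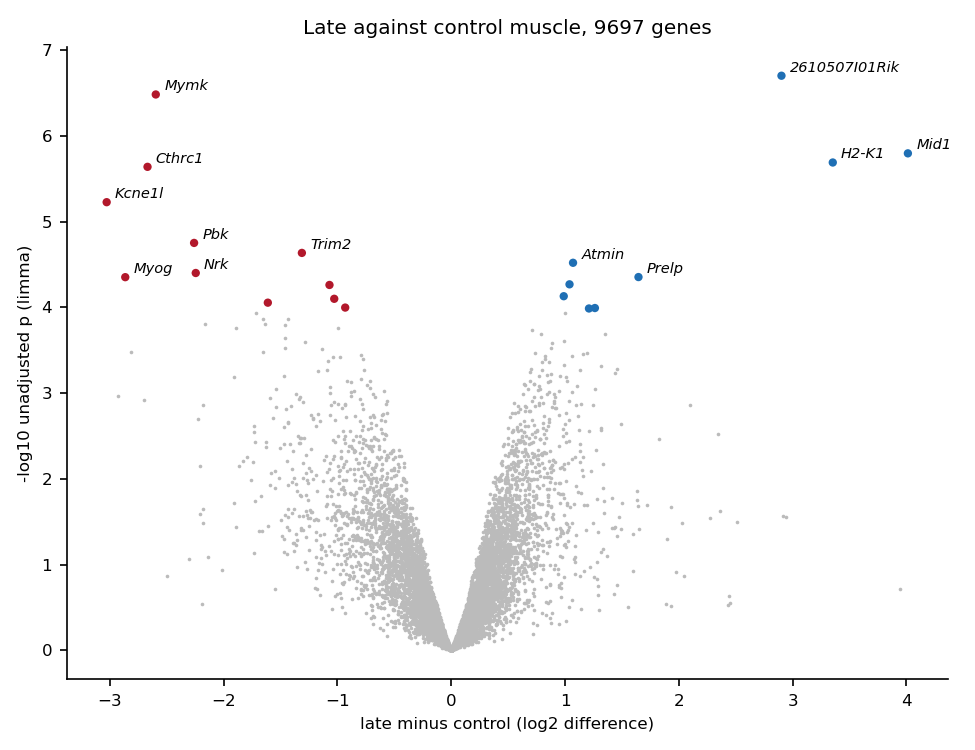
Late minus control log2 difference (x axis) against the negative log10 of the unadjusted limma p (y axis) for 9697 genes, with the 9 higher genes in blue and the 11 lower genes in red. The genes with the smallest p are 2610507I01Rik (2.90) and Mymk (-2.60), and Mid1 (4.01, or 2.17 counted from the floor of 5) lies farthest to the right among called genes.

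H2-K1, a classical class I heavy chain, measured 10.88, 10.47 and 10.21 in controls and 14.20, 13.11 and 14.31 in late mice. The groups did not overlap, and late 2 was the lowest of the late arrays. The rise was 3.35 ± 0.31 (10.2-fold, adjusted p = 0.00446) and was 3.19 without late 1 (adjusted p = 0.02). Its other passing probe sets differed by 4.06, 3.997 and 0.47, with adjusted p = 0.00485, 0.0892 and 0.516 over all passing probe sets, so they did not give 1 size. For the second the control mean of 4.64 lay below the floor of 5. Its partner B2m, beta-2 microglobulin, lay at 13.12, 13.07 and 13.18 in controls and at 12.18, 13.68 and 13.44 in late mice, which span the controls. H2-D1, the other classical heavy chain tested, measured 12.11, 12.18 and 12.33 in controls and 11.65, 12.78 and 13.02 in late mice and differed by 0.28 ± 0.36. A dimmer H2-D1 probe set measured 5.42, 5.57 and 6.12 in controls and 7.21, 7.06 and 8.67 in late mice, which did not overlap. It differed by 1.95 (adjusted p = 0.101 over all passing probe sets), the largest of the passing H2-D1 probe sets. The remaining ones differed by 0.78, 0.17, 0.28 and 0.54, with adjusted p = 0.345, 0.815, 0.844 and 0.567. On the probe set taken for H2-D1 late 1 was the lowest of all 6 arrays, as for B2m. Without it B2m differed by 0.44 (adjusted p = 0.594) and H2-D1 by 0.70 (adjusted p = 0.304). Of 13 class I pathway genes tested only H2-K1 was called, and the list median was -0.42, 0.52 and 0.19 in late 1, 2 and 3. Class I heavy chains are near-identical in sequence, so a probe set of one can also bind RNA of another.

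The genes that fell included regulators of muscle differentiation. Myog, the transcription factor myogenin that drives myoblasts into differentiation, measured 8.84, 8.94 and 8.94 in controls and 5.55, 6.78 and 5.80 in late mice. Every late array lay at least 2 log2 units below every control, and Myog fell by 2.86 ± 0.39 (7.28-fold lower, adjusted p = 0.0359). Mymk, myomaker, the membrane protein that fuses myoblasts to fibres, measured 6.83, 6.26 and 6.56 in controls and 3.90, 3.92 and 4.04 in late mice. It fell by 2.60 ± 0.19 (adjusted p = 0.0016). Kcne1l, a regulatory subunit of potassium channels, measured 6.59, 6.60 and 6.60 in controls and 4.05, 3.34 and 3.30 in late mice and fell by 3.03 ± 0.32 (adjusted p = 0.00959). The late levels of Mymk and Kcne1l lay below 5, the floor of the filter, where arrays have no order; counted from 5 the falls were 1.55 and 1.59 at least. Without late 1 the adjusted p was 0.0895 for Myog, 0.0113 for Mymk and 0.017 for Kcne1l.

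The promoters of Myog and Kcne1l are shown because, among called genes with an entry in the promoter table, they had the lowest measured differences, and because myogenic factors bind E-boxes. Counted from the floor Kcne1l fell by 1.59, about as much as Rab4b (1.61). Each runs from 250 bases before to 50 bases after the RefSeq start on GRCm38.p6, Myog at chr1:134289754-134290053 on the plus strand and Kcne1l at chrX:142306149-142306448 on the minus strand. Capitals mark E-boxes (CANNTG, the same on both strands) and, in Myog, the longest run of capitals, a MEF2-like motif searched on both strands; the motifs do not overlap.

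Myog: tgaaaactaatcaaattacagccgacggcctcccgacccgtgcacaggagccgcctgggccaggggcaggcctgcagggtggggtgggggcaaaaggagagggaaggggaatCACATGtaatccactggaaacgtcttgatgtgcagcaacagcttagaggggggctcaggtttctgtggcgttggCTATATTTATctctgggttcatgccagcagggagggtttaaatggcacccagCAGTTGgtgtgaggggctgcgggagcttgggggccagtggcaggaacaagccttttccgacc

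Kcne1l: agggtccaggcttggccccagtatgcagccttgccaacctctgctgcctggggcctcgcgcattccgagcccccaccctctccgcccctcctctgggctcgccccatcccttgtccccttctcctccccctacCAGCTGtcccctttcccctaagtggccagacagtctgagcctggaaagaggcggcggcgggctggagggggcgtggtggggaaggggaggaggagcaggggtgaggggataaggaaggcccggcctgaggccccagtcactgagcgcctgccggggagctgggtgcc

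Myog held E-boxes at -138 and -12 and the MEF2-like motif at -64, and Kcne1l an E-box at -117, counted from the start site. An E-box stood in 72.3% of all 32851 windows of this length and in 63.3% of the windows of tested genes, and in 21 of the 26 windows of called genes (80.8%). The MEF2-like motif stood in 0.0731% of all windows, in 0.0196% of those of tested genes and in 1 of these 26. A match describes these letters and is not a binding site.

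In the whole list of 28 myogenic regulators, satellite cell and fusion genes, 2 were called lower and 0 higher, and 14 lay on each side of 0 with a median of 0.01. Megf10, a receptor of satellite cells, differed by -1.35 ± 0.34 (adjusted p = 0.126) and Mef2a, a differentiation factor, by 0.34 ± 0.14 (adjusted p = 0.27). Embryonic and cardiac sarcomere genes had 0 of 9 called.

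Pbk, a mitotic kinase, fell too. It measured 6.22, 5.93 and 6.61 in controls and 3.83, 4.26 and 3.90 in late mice, a difference of -2.26 ± 0.27 (adjusted p = 0.0246). Early mice, at 3.81, 4.54 and 4.74, also lay below 5. Pbk thus passed the filter only through the controls, where it was high, and its size is uncertain. Nrk, a kinase encoded on the X chromosome, measured 6.42, 5.98 and 5.43 in controls and 3.49, 3.80 and 3.80 in late mice (-2.24 ± 0.30, adjusted p = 0.0359). Both late means lay below the floor of 5, and counted from it the falls were 1.25 and 0.94. Their adjusted p was 0.0667 and 0.0895 without late 1.

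Among the genes that rose was Mid1, a ubiquitin ligase bound to microtubules. It measured 2.98, 3.32 and 3.16 in controls and 7.17, 7.02 and 7.31 in late mice, so the late arrays were tight and far above. The rise was 4.01 ± 0.36 (adjusted p = 0.00446), and 2.17 counted from the floor, which is below the rise of H2-K1. The transcript 2610507I01Rik measured 2.76, 2.39 and 2.39 in controls and 4.98, 5.64 and 5.62 in late mice (2.90 ± 0.20, adjusted p = 0.0016). Since both genes passed the filter only through induced arrays, their sizes are uncertain, and 2610507I01Rik rose by only 0.41 when counted from the floor. Atmin, a transcription factor that binds the kinase ATM, measured 7.71, 7.64 and 7.83 in controls and 8.95, 8.58 and 8.86 in late mice (1.07 ± 0.14, adjusted p = 0.0326). A dimmer probe set of Atmin differed by 0.28. Trim2, another ubiquitin ligase, went down, from 7.29, 7.56 and 7.57 to 5.93, 6.15 and 6.40 (-1.31 ± 0.16, adjusted p = 0.0281). Its other passing probe sets differed by -0.27 and -0.45. Without late 1 Atmin had adjusted p = 0.0667 and Trim2 0.0631.

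The called genes of the extracellular matrix went both ways. Cthrc1, a secreted protein of activated fibroblasts, measured 8.59, 8.23 and 7.73 in controls and 5.62, 5.14 and 5.79 in late mice and fell by 2.67 ± 0.25 (adjusted p = 0.00446). Col16a1, a collagen chain that decorates other fibrils, measured 7.97, 8.14 and 7.70 in controls and 6.81, 6.97 and 6.95 in late mice (-1.03 ± 0.15, adjusted p = 0.0482). Prelp, a leucine-rich proteoglycan that binds collagen, measured 8.85, 8.75 and 8.98 in controls and 10.88, 10.66 and 9.98 in late mice (1.65 ± 0.22, adjusted p = 0.0359). Its other probe set went the same way by 0.33 only. Mmrn1, multimerin, a glycoprotein of platelets and endothelium, measured 5.01, 5.19 and 5.54 in controls and 6.31, 6.73 and 6.48 in late mice (1.26 ± 0.19, adjusted p just under 0.05). Without late 1 the differences were -2.72, -0.98, 1.46 and 1.36 in this order, with adjusted p of 0.02, 0.0989, 0.0667 and 0.081. Late 1, which held the neutrophil and bone transcripts, was the highest array for Prelp, and their part in that value was not tested.

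Abcb4, a phospholipid transporter, measured 9.64, 9.73 and 10.05 in controls and 10.80, 10.88 and 10.86 in late mice (1.04 ± 0.14, adjusted p = 0.038). Uaca, a coiled-coil protein, measured 10.18, 9.93 and 9.99 in controls and 11.16, 11.08 and 10.83 in late mice (0.99 ± 0.14, adjusted p = 0.0479). Both sets of arrays were narrow and did not overlap. Tnfrsf19, a receptor of the TNF receptor family, measured 7.63, 7.17 and 7.70 in controls and 8.66, 8.80 and 8.67 in late mice (1.21 ± 0.18, adjusted p just under 0.05). A dimmer passing probe set of Tnfrsf19 differed by -0.96 (adjusted p = 0.255), so the direction rests on the probe set taken.

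Ift27, a small GTPase of intraflagellar transport, measured 11.15, 11.14 and 10.86 in controls and 9.90, 9.84 and 10.19 in late mice (-1.07 ± 0.15, adjusted p = 0.038). Its other probe sets differed by -1.32 and -1.06. Rab4b, a GTPase of endosome recycling, measured 7.78, 7.83 and 7.58 in controls and 5.88, 6.15 and 6.33 in late mice (-1.61 ± 0.24). Nt5c3b, a cytosolic nucleotidase, measured 7.10, 7.24 and 7.20 in controls and 6.08, 6.27 and 6.40 in late mice (-0.93 ± 0.14), and its other passing probe set differed by -1.25. Both had an adjusted p just under 0.05. Without late 1 the adjusted p of Abcb4, Uaca, Tnfrsf19, Ift27, Rab4b and Nt5c3b lay between 0.081 and 0.106.

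Early mice had the controls' age, so their arrays show where an induced muscle of that age lay. For 9 of the 20 genes the early arrays overlapped the controls and not the late arrays, for 7 they lay between and apart from both, for 2 (2610507I01Rik and Pbk) they overlapped the late arrays only, and the remaining 2 (H2-K1 and Uaca) fell in no such order. Myog, for example, measured 9.21, 8.31 and 7.84 in early mice, Prelp 8.83, 8.74 and 8.61 and Atmin 7.73, 7.79 and 7.72. Mymk measured 4.96, 5.45 and 4.98 in early mice and Mid1 4.998, 5.58 and 6.67. For Pbk all early and late arrays lay below the floor of 5, where arrays have no order. The direct test of late against early mice, fitted over all genes, passed for 16 of the 20. The background was 1119 of 9697 genes (11.5%), with 6.23% higher and 5.31% lower in late mice. Without late 2 it passed for 9 of the 20 and 143 of all genes, and without early 2 for 11 and 160. The test shares the late arrays with the comparison that chose these genes, so the share is a description.

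**Figure D2:**
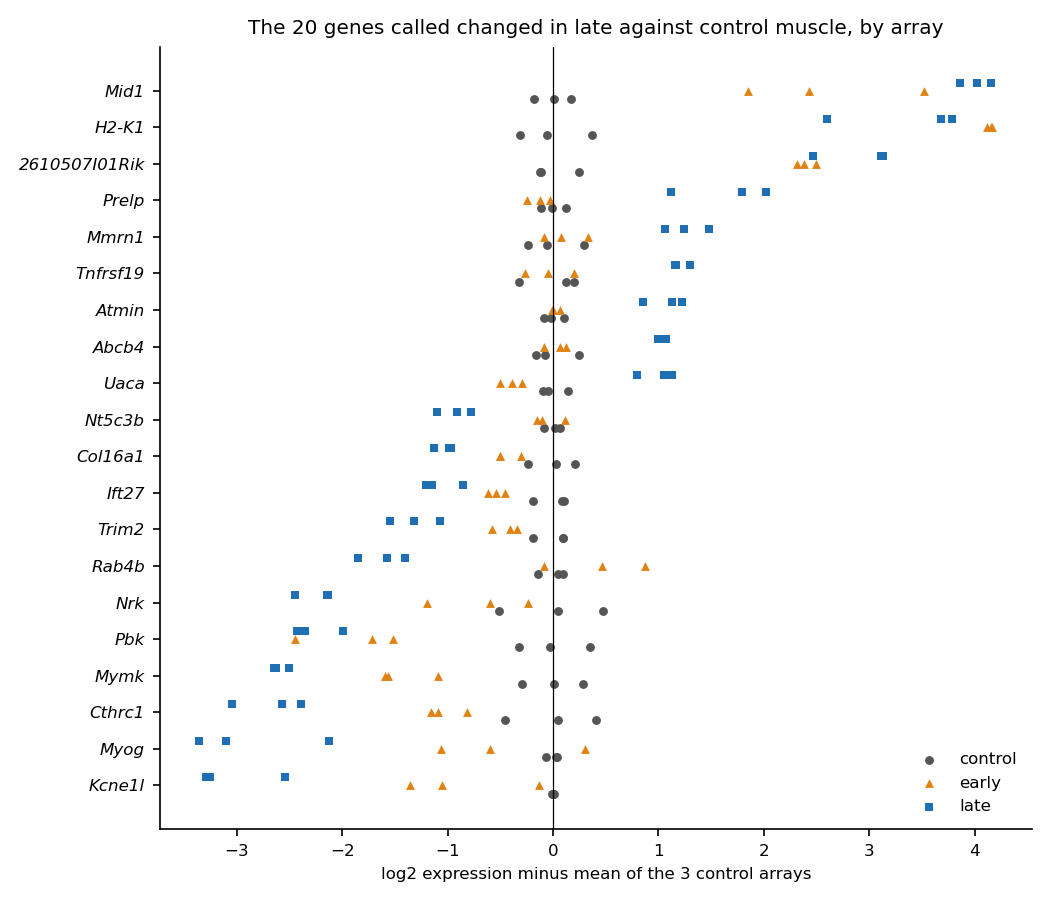
Log2 expression of the 20 called genes minus the mean of the 3 control arrays (x axis), 1 point per array, with controls as grey circles, early mice as orange triangles and late mice as blue squares. Late arrays lie apart from the controls for every gene shown, as the selection requires, while early arrays lie among the controls for genes such as Prelp and Atmin and near the late arrays for 2610507I01Rik.

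Below the threshold, 287 genes were higher and 232 lower in late mice at an unadjusted p under 0.01 with no overlap and both means above 5; the 15 largest of each had adjusted p between 0.0519 and 0.157, so none is called. On the higher side were Omd, osteomodulin, a proteoglycan of mineralised tissue (controls 5.28, 5.55 and 5.64, late 7.48, 6.89 and 6.45, difference 1.45 ± 0.27), Il15, a cytokine that muscle secretes (controls 5.91, 6.07 and 6.10, late 6.59, 7.42 and 7.90, difference 1.28 ± 0.34), and Xdh, xanthine dehydrogenase (1.19 ± 0.21). Nos1, the nitric oxide synthase of the fibre membrane, differed by 1.23 ± 0.36 and Cbx7, a Polycomb subunit, by 1.33 ± 0.38, or by 0.81 without late 1. Also on this side were Lrrc2 (2.10), Rph3al (1.44), Rilpl1 (1.35), Nfil3 (1.32), Crebrf (1.32), Kcnq5 (1.31), Reln (1.26), Klhl21 (1.25) and Ell2 (1.21). Late 1 was the highest late array for 10 of these 15 genes, Omd among them, and the lowest for Il15, Nos1 and Kcnq5.

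On the lower side were the imprinted genes Cdkn1c, Rian and Mest and the elastic fibre genes Mfap2, Mfap4 and Eln, described with their lists. Acly, which makes acetyl-CoA for lipid synthesis, measured 12.65, 11.60 and 11.95 in controls and 9.62, 10.96 and 10.75 in late mice (-1.63 ± 0.43). Slc25a10, the mitochondrial dicarboxylate carrier, differed by -2.18 ± 0.48. Ehd2, an ATPase of caveolae, measured 9.22, 8.90 and 8.47 in controls and 7.24, 7.20 and 7.26 in late mice (-1.63 ± 0.26), and late mice were tight. Cd82, a tetraspanin, differed by -1.63 ± 0.42. The others were A930003A15Rik (-2.93), Rbm45 (-1.89), Tnfaip2 (-1.80), C1qtnf6 (-1.65) and Mdga1 (-1.59). Late 1 was the lowest late array for 13 of these 15 genes, all but Ehd2 and Cdkn1c.

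Matrix genes as a set had mostly negative values. Of 103 tested, 85 were negative and 18 positive, with a median of -0.45 against 0.01 over all genes; 2 were called lower and 2 higher. At an unadjusted p under 0.05, 37 were lower, where 8.44% of all genes were, and 5 were higher, where 8.82% were. Leaving out 1 late or control array moved the median between -0.52 and -0.33 and the count of lower genes between 17, without control 1, and 39. Without late 1 there were 25, where 6.54% of all genes were lower. These genes vary together within an array, so the counts are not independent evidence per gene.

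Among the collagens and basement membrane genes, which form the fibrils and the sheet around each fibre, 33 of 34 had negative values (median -0.72, and -0.49 without late 1). The 8 fibrillar collagen genes had medians of -0.93, -0.81 and -0.64 in late 1, 2 and 3. Col1a1, the main chain of type I collagen, measured 14.39, 14.32 and 13.85 in controls and 13.33, 13.29 and 13.38 in late mice (-0.85 ± 0.18, adjusted p = 0.0942). Col5a1, a chain that sets fibril width, measured 11.39, 10.92 and 10.88 in controls and 9.11, 10.16 and 10.01 in late mice (-1.30 ± 0.28, adjusted p = 0.0965). All 3 late arrays lay below all controls for both genes. Basement membrane genes, all 16 negative, had medians of -0.996, -0.26 and -0.42, so late 1 was the lowest. Hspg2, perlecan, differed by -1.23 ± 0.33 and Lamc1, a laminin chain, by -0.63 ± 0.16. The 17 collagen processing genes had a median of -0.39, with Serpinh1, the collagen chaperone, at -1.09 ± 0.38 and -0.61 without late 1. None of these named genes passed.

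The 14 elastic fibre and microfibril genes, which give tissue its recoil, had a median of -0.45, with 12 negative and 0 called. Emilin1 measured 7.46, 7.02 and 6.33 in controls and 3.82, 3.87 and 5.02 in late mice (-2.70 ± 0.58, adjusted p = 0.0965). Mfap2, a microfibril glycoprotein, measured 8.27, 7.85 and 7.53 in controls and 5.15, 6.00 and 6.01 in late mice (-2.16 ± 0.34, adjusted p = 0.0573). Both were lower in late than in early mice by the direct test (-2.97, adjusted p = 0.0225, and -2.35, adjusted p = 0.0108). Eln, elastin, measured 9.90, 9.66 and 9.76 in controls and 7.33, 8.50 and 8.30 in late mice (-1.73 ± 0.42). Mfap4 differed by -1.87 ± 0.53, and by -1.10 without late 1.

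Proteoglycans of the matrix, 19 genes with a median of -0.32 (-0.19 without late 1), held 3 genes with differences above 1. Beside Prelp and Omd, Chad, chondroadherin of cartilage, measured 8.20, 9.39 and 8.18 in controls and 10.57, 9.47 and 9.57 in late mice (1.28 ± 0.44, adjusted p = 0.211). Late 1 was the highest array for all 3 genes; without it Omd differed by 1.18 and Chad by 0.93. Bgn, biglycan, went the other way (-0.75 ± 0.26). Among 19 glycoproteins Thbs3, a thrombospondin, differed by -1.09 ± 0.21 and Tnxb, tenascin-X, by -0.47 ± 0.14. Markers of fibroblasts, the cells that make this matrix, had a median of -0.95, -0.30 and -0.21 in late 1, 2 and 3. Their mean level was 9.40 to 9.73 in controls and 8.59 to 9.29 in late mice, which did not overlap, and 5 of 16 were lower at an unadjusted p under 0.05, 0 without control 1, where 4.12% of all genes were lower. In whole muscle, fewer cells of a type and less RNA per cell cannot be told apart. The plot of matrix genes by role shows the spread within each role.

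**Figure D3:**
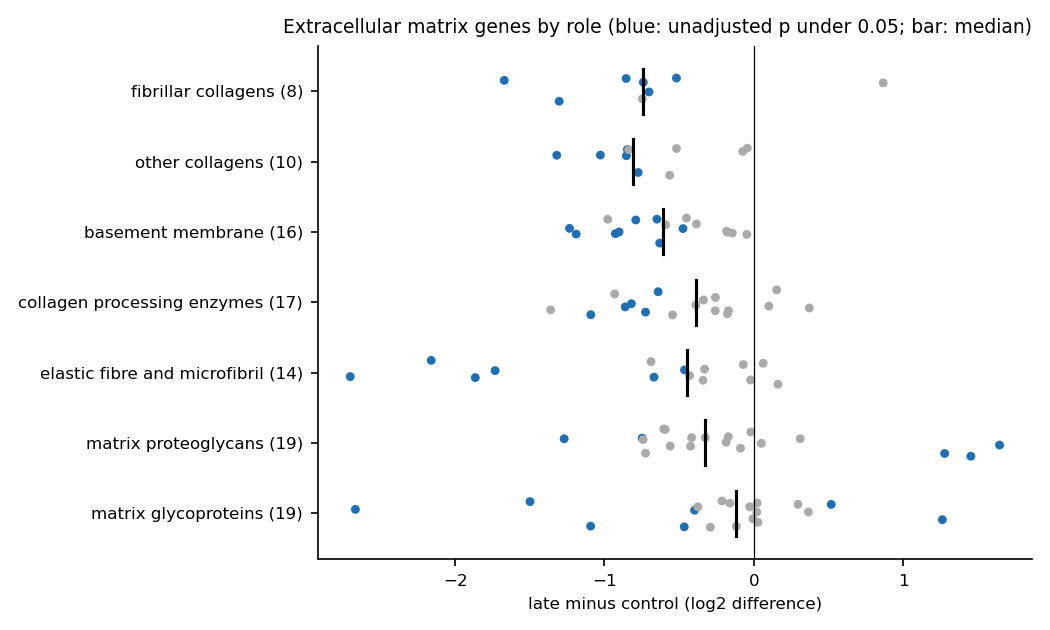
Late minus control log2 difference (x axis) of tested matrix genes by role (y axis, number of genes in brackets), 1 point per gene, blue at an unadjusted p under 0.05, with a bar at the role's median. All 10 other collagens and all 16 basement membrane genes lie below 0, and 3 proteoglycans (Prelp, Omd and Chad) lie far above it.

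Among growth genes, the imprinted network had mostly negative values, and the growth hormone and IGF axis went both ways. Of 16 genes of that axis 9 were negative and 7 positive, with 0 called and a median of -0.15. Its median was 0.08 without late 2. The mean level of the axis was 10.42 to 10.50 in controls and 10.43 to 10.53 in late mice, which overlapped. Of 17 genes of the imprinted growth network, whose fall accompanies the slowing of growth after birth in many organs, 15 were negative, 0 were called and 10 were lower at an unadjusted p under 0.05, where 8.44% of all genes were, with medians of -0.67, -0.57 and -1.30 in late 1, 2 and 3. Cdkn1c, a cell cycle inhibitor, measured 11.47, 11.18 and 11.10 in controls and 10.20, 9.20 and 9.22 in late mice (-1.71 ± 0.26, adjusted p = 0.0519). It passed without late 1 (-2.04, adjusted p = 0.00742). Igf2, a fetal growth factor, measured 10.53, 10.50 and 10.19 in controls and 9.73, 8.63 and 8.45 in late mice (-1.47 ± 0.38). Rian, a non-coding RNA, differed by -2.22 ± 0.51 and Mest, a hydrolase, by -2.20 ± 0.63, or by -1.89 and -1.38 without late 1. Late 1 was thus the least low for Cdkn1c and Igf2 and the lowest for Rian and Mest.

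Of 31 cell cycle genes 28 were negative and 1 was called, Pbk, which passed the filter only through the controls. At an unadjusted p under 0.05, 13 were lower (8.44% of all genes), and 19 without late 1 (6.54% of all genes). The lower count was 9 without control 3 (6.94%) and 9 without late 3 (8.02%), where the list median of -0.65 became -0.49. Their medians were -0.06, -0.55 and -0.88 in late 1, 2 and 3. Mcm5, a subunit of the replication helicase, measured 7.94, 7.63 and 7.87 in controls and 7.17, 6.05 and 6.13 in late mice (-1.36 ± 0.28, adjusted p = 0.0942). Late 1 lay nearest the controls, and without it Mcm5 passed (-1.72, adjusted p = 0.017). Stmn1, which destabilises microtubules, differed by -1.47 ± 0.35 (-1.87 without late 1, adjusted p = 0.0659). The neutrophil precursor transcripts seen in late 1 stand beside these values, and their part was not tested. Cholesterol synthesis genes, 17 of 19 negative with 0 called, had medians of -0.87, -0.49 and -0.21. At an unadjusted p under 0.05, 6 were lower (8.44% of all genes), but 2 without control 1 (4.12%), 3 without control 2 (5.75%) and 1 without late 1 (6.54%), where the median of -0.54 became -0.32. Insig1, a sterol sensor, differed by -1.09 ± 0.37 and Dhcr7, the last enzyme of the pathway, by -0.85 ± 0.26, or by -0.51 without late 1.

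**Figure D4:**
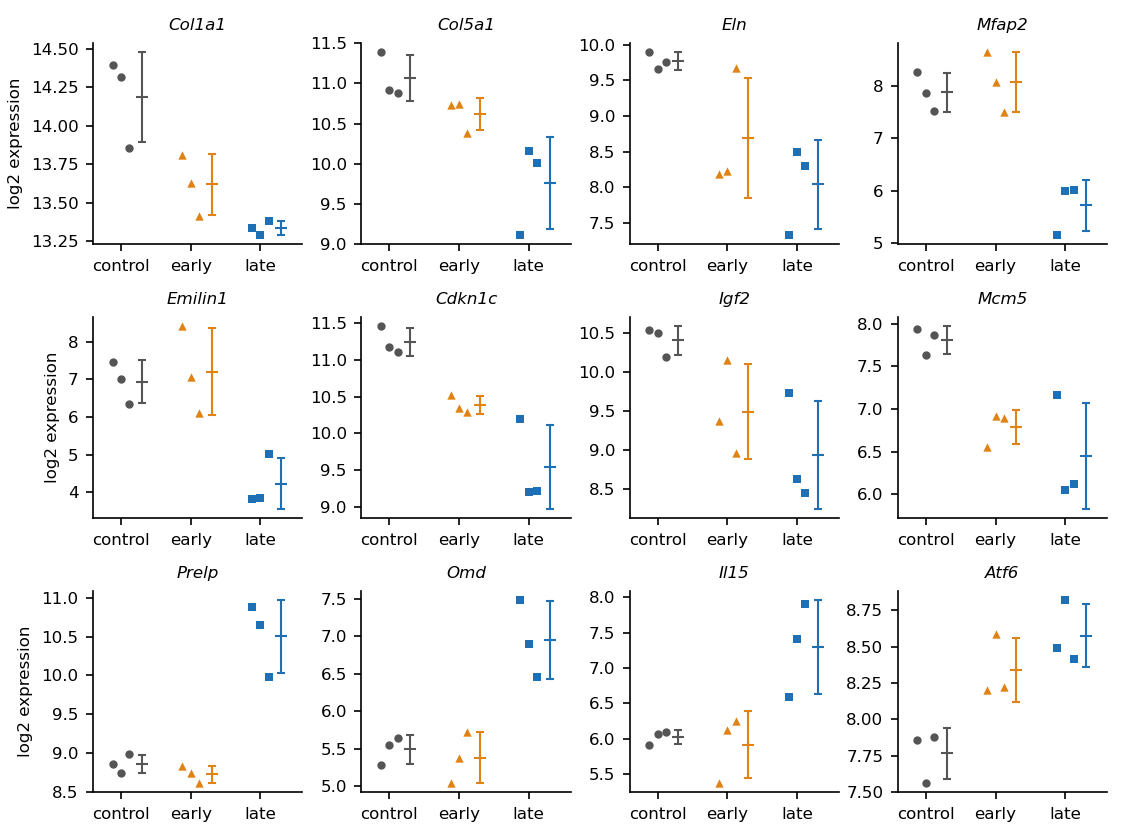
Log2 expression (y axis, a scale of its own in each panel) of 12 genes in control, early and late muscle, 1 point per array, with the mean and SD beside them. Late arrays lie below all controls for Col1a1, Col5a1, Eln, Mfap2, Emilin1, Cdkn1c, Igf2 and Mcm5 and above all controls for Prelp, Omd, Il15 and Atf6; of these only Prelp passed the test.

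No gene of the ER lists was called between late and control muscle, where 0.206% of all genes were called. Of 27 ER chaperones and folding enzymes 0 were called, with a median of 0.14 and array medians of 0.01, -0.14 and 0.42. At an unadjusted p under 0.05, 4 were higher (8.82% of all genes) and 2 lower (8.44%). Hspa5, the main ER chaperone, named after its values were seen, measured 13.10, 12.63 and 12.72 in controls and 13.54, 12.84 and 14.08 in late mice (0.67 ± 0.29, adjusted p = 0.281), and 14.98, 15.27 and 15.17 in early mice. Late mice thus lay below early mice by 1.65 (adjusted p = 0.0173). Manf, a secreted protein of ER stress chosen the same way, differed by 0.75 ± 0.36 from controls and by -2.83 from early mice (adjusted p = 0.00608). By the direct test 21 of the 27 chaperones were lower in late than in early mice, where 5.31% of all genes were. The count was 11 without late 2 or without early 2, where 81 and 99 of all 9697 genes were lower. Hspa5 then had adjusted p = 0.0454 and 0.0614. The 18 genes of ER-associated degradation had 0 called against controls and 7 lower than in early mice. The 7 became 2 without late 1 and 2 without late 2, where 160 and 81 of all 9697 genes were lower.

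The list that joins sensors of the unfolded protein response with integrated stress genes had mostly positive values. Of 22 genes 15 were positive and 0 called, with a median of 0.33 (0.18 without late 1). Their mean level was 8.29 to 8.46 in controls and 8.52 to 8.75 in late mice, which did not overlap. At an unadjusted p under 0.05, 7 were higher, where 8.82% of all genes were, and 2 lower. The higher count was 4 without control 2 (5.17% of all genes) and 4 without late 2 (7.32%). Atf6, a sensor cleaved under ER stress, measured 7.86, 7.56 and 7.88 in controls and 8.49, 8.82 and 8.42 in late mice (0.81 ± 0.18, adjusted p = 0.0965). Ern1, the sensor that splices Xbp1, differed by 0.73 ± 0.20 and Atf5, a stress transcription factor, by -0.51 ± 0.14. Neither passed.

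Among fibre type and metabolism genes, the slow fibre list differed by array more than by group. Fast fibre genes had a median of -0.03, 58 oxidative phosphorylation genes -0.07, 36 citrate cycle and fatty acid oxidation genes 0.09, 25 glycolysis genes 0.00 and 31 proteasome genes 0.01, with 0 called in each. Slow fibre genes had medians of 2.70, 1.91 and -0.51 in late 1, 2 and 3 and of -0.06, -0.36 and 0.63 in the controls. Myh7, the slow myosin, measured 7.10, 2.81 and 9.55 in controls and 13.37, 12.28 and 5.63 in late mice, so the groups overlapped widely. Of 22 mitochondrial regulators 15 were positive with 0 called (median 0.34, and 0.20 without late 1). Ppargc1a, the coactivator that drives mitochondrial genes, measured 8.52, 8.72 and 8.81 in controls and 9.78, 9.73 and 9.29 in late mice (0.92 ± 0.29, adjusted p = 0.175). It measured 7.38, 8.24 and 8.56 in early mice, and late exceeded early by 1.54 (adjusted p = 0.0199).

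Atrophy and FoxO genes, which mark protein breakdown in muscle, had positive values for 18 of 20 with 0 called. Without late 1, 15 of 20 were positive, and the list median of 0.44 became 0.18. The medians were 0.94, 0.23 and 0.08 in late 1, 2 and 3. Fbxo32, the ubiquitin ligase atrogin, measured 9.57, 9.82 and 9.84 in controls and 10.89, 10.42 and 11.41 in late mice (1.16 ± 0.35, adjusted p = 0.17). Foxo1, the factor that drives it, measured 8.47, 8.06 and 8.36 in controls and 10.41, 9.27 and 8.38 in late mice; its difference of 1.06 was 0.53 without late 1. Of 14 circadian genes 12 were positive with 0 called (median 0.29), and Nfil3, a repressor of clock output, differed by 1.32 ± 0.32. The circadian medians were 0.69, 0.39 and -0.15 in late 1, 2 and 3, so the late arrays did not agree. Mean levels of the list overlapped, at 8.89 to 8.98 in controls and 8.84 to 9.74 in late mice. The labels give no time of day for sampling.

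Signalling and channel genes gave single changes. In the Wnt list of 27, Tnfrsf19 rose, and Apc, a scaffold that degrades beta-catenin, measured 8.78, 9.03 and 8.86 in controls and 9.54, 9.59 and 9.46 in late mice (0.64 ± 0.13, adjusted p = 0.0914). In the TGF-beta and BMP list of 28, 0 were called; Bmp6, a ligand, differed by 1.13 ± 0.22 (adjusted p = 0.0839) and Fstl1, a secreted follistatin relative, by -1.23 ± 0.28 (adjusted p = 0.105). In the excitation-contraction list of 24, Kcne1l fell. There Clcn1, the muscle chloride channel, differed by 0.76 ± 0.18 and Cacnb1, a calcium channel subunit, by -0.69 ± 0.18, and both differed between late and early mice (1.25, adjusted p = 0.0108, and -0.89, adjusted p = 0.0243).

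Immune lists split by array. MHC class II genes, which professional antigen-presenting cells carry, had medians of -0.06, 1.67 and 1.56 in late 1, 2 and 3. H2-Eb1, a class II chain, measured 8.03, 7.52 and 7.45 in controls and 7.61, 9.63 and 9.59 in late mice (1.28 ± 0.68, adjusted p = 0.368, and 1.94 without late 1, adjusted p = 0.245). Type I interferon response genes had medians of -1.65, 0.32 and -0.03, and interferon gamma response genes -0.81, 0.94 and 0.50. The type I list median of -0.39 became 0.17 without late 1. Of 24 macrophage genes 0 were called (median 0.09, and 0.17 without late 1). Their mean levels were 8.15 to 8.64 in controls and 8.34 to 8.52 in late mice. Of 19 T and NK cell genes on the array 18 lay below the filter. The 1 tested, Cd28, measured 6.60, 6.88 and 5.98 in controls and 3.76, 4.25 and 5.96 in late mice. Cd28 was not called and differed by -1.83, or by -1.38 without late 1 (adjusted p = 0.295). Its values in late 1 and late 2 lay below the floor of 5. Cd3e, part of the T cell receptor complex and below the filter, was at 2.53 to 2.63 in controls and 2.60 to 2.63 in late mice.

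Other cell types showed no called gene beyond those above, and over all genes 0.206% were called. Of 23 endothelial genes, 6 were lower at an unadjusted p under 0.05 (8.44% of all genes) and 1 higher (8.82%), with a median of -0.06. The lower count was 3 without control 1 (4.12% of all genes) and 3 without late 1 (6.54%), and the median was then 0.05 and 0.06, and 0.09 without control 3. Cldn5, the tight junction protein of vessels, measured 9.22, 8.62 and 8.71 in controls and 7.45, 6.90 and 7.99 in late mice (-1.41 ± 0.31, adjusted p = 0.0966). Adipocyte markers had a mean level of 10.12 to 11.11 in controls and of 9.33, 11.09 and 9.31 in late 1, 2 and 3. Smooth muscle markers lay at 9.74 to 9.90 in controls and 9.59 to 9.83 in late mice and Schwann cell markers at 7.44 to 7.86 and 7.28 to 7.51. Tendon markers lay at 10.27 to 10.52 in controls and 9.91 to 10.14 in late mice, with Tnmd, tenomodulin, at -0.75 ± 0.23 (adjusted p = 0.165).

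**Figure D5:**
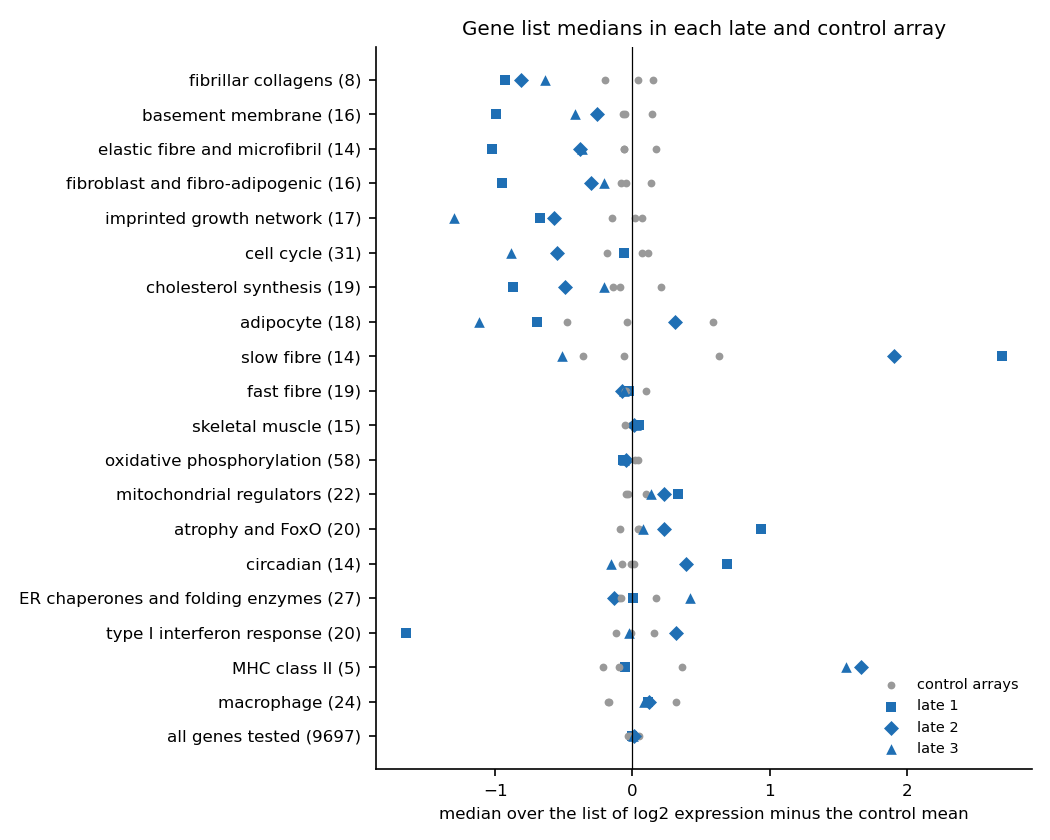
Median over each gene list (y axis, number of genes in brackets) of log2 expression minus the control mean (x axis), with the 3 control arrays in grey and the 3 late arrays in blue by symbol. The late arrays agree for fibrillar collagens (-0.93, -0.81 and -0.64), while late 1 differs from the others for MHC class II, type I interferon and cell cycle genes.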

How the data were processed

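RNA from quadriceps was primed with oligo(dT), labelled with biotin and read on Affymetrix arrays, 1 per mouse, per the labels' protocols. The log2 values deposited by the authors were made with GCRMA according to the submitters' processing notes; no version is named there. GCRMA equalises arrays and compresses dim probe sets. Arrays had medians of 3.41 to 3.45 and 17391 to 17735 of 45101 probe sets above 5. Precision is limited by 3 arrays per group.

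Probe sets naming 1 gene in the platform annotation and above 5 in at least 3 arrays were kept, the brightest per gene (9697 genes). A model of 3 group means was fitted to all 9 arrays with limma 3.58.1 in R 4.3.3 (6 residual and 2.84 prior degrees of freedom), with Benjamini-Hochberg adjustment over all genes. With 3 arrays a side an exact test reaches p = 0.1 at best. Members and 56 lists were chosen with earlier results of these data known. Named were all called genes, the 15 largest rises and falls below the threshold (unadjusted p under 0.01, no overlap, both means above 5), up to 4 members per list with the smallest p, and H2-K1, H2-D1 and B2m; 1 gene that the rule names is not reported here. Alternatives covered filter, probe set choice, scaling, array weights, a replicate block and leaving out arrays; leaving out arrays for the list counts was added after the data were seen. Data of 9697 genes were simulated for the late against control comparison, with normal noise independent between genes and of equal spread in every array. There the fit recovered 53% of genes changed by 1, 90.8% by 2, 96.6% by 3 and 98.8% by 4, and 5.7% of calls were false. The simulated data held no array apart like late 1 and no genes varying together, so these shares need not hold for the real arrays. Same-numbered late and early arrays deviated together (r = 0.17, 0.20 and 0.16), and late and control arrays did not (0.08, -0.16 and -0.11). Promoters are RefSeq windows on GRCm38.p6, found for 17 of 20 called genes.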

Additional observations from a re-analysis of the deposited data

Results flagged for a closer look

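For 16 of the 20 genes called in late against control muscle, late and early muscle also differed when compared directly. The test was limma over all 9697 genes, late minus early, at an adjusted p under 0.05, which 1119 genes (11.5%) passed. Mice of the induced groups differed in age as well. The same late arrays chose the 20 genes, so the share of 16 is a description. Late mice were higher by 1.39 for Uaca, 1.78 for Prelp, 1.05 for Atmin, 1.01 for Abcb4, 1.25 for Tnfrsf19, 1.16 for Mmrn1 and 1.42 for Mid1. They were lower, with differences of -2.03 for Rab4b, -2.18 for Kcne1l, -1.65 for Cthrc1, -0.88 for Nt5c3b, -2.41 for Myog, -1.18 for Mymk, -0.87 for Trim2, -1.57 for Nrk and -0.59 for Col16a1. The number that passed was 9 without late 2, 11 without early 2, 12 without late 1 or early 1, 14 without any one control or late 3, and 16 without early 3. Over all genes the number lay between 143, without late 2, and 2959, without early 3. Groups of 3 arrays are too small for a test of single outlying arrays.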

How the results depend on the processing

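The late against control count of 20 was 12 with only the compared groups fitted, 1037 with array weights, 5 with the replicate block and 5 to 59 on leaving out 1 array. The late against early count of 1119 was 38 with only those groups, 584 with no filter, 3534 with array weights and 143 to 2959 on leaving out 1 array. The cause was not tested, beyond the fewer arrays of some fits. Centring turned the late against control split of 9 higher and 11 lower into 8 and 18, and the late against early split of 604 and 515 into 489 and 631. Tnfrsf19 turned to -0.96 with the most variable probe set (adjusted p = 0.255). Over the alternatives the 20 genes kept the call in 229 of 392 values. Late and control arrays share only a number, and 1 of 3 late arrays correlated best with its own; under the replicate block 2610507I01Rik, Mymk, Mid1, H2-K1 and Cthrc1 stayed called (adjusted p = 0.0204 each). The block left the late against early count at 1114 and all 16 of its called genes. Of 4450 values of other named genes 131 passed, 108 of them with array weights, and 80 of 901 list medians moved beyond the array spread. Probe sets under 5 limit any size given for dim genes.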

Other observations

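Of the 17 called genes with a RefSeq position, 3 lie on the X chromosome (Mid1, Nrk and Kcne1l), which is 17.6% against 3.29% of the 7904 tested genes with one; this was noticed after the calls were seen and not tested. Chil3, a secreted lectin of myeloid cells, measured 10.56 and Lcn2, lipocalin of neutrophil granules, 10.25 in late 1, against at most 2.36 and 2.85 in the other 8 arrays. Mast cell markers in that array did not stand out: Cpa3, a mast cell protease, was 6.55 in late 1 and 6.65 to 7.96 elsewhere. Cish, a STAT5 target that restrains cytokine signals, measured 5.95, 6.60 and 6.84 in controls, 7.47, 7.74 and 7.90 in late mice and 2.90, 3.18 and 4.97 in early mice. Its late minus early difference was 4.02 (adjusted p = 0.00578), and its late minus control difference of 1.24 ± 0.49 did not pass (adjusted p = 0.257). Il33, an alarmin of fibroblasts and endothelium, measured 6.75, 6.53 and 6.95 in controls, 7.52, 7.65 and 7.20 in late mice and 5.77, 5.61 and 5.95 in early mice, with a late minus early difference of 1.68 (adjusted p = 0.00498).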
